A study of Mus musculus with 6 samples.

Results

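Histone chaperones are the proteins that carry newly made or evicted histones and hand them to DNA. This account concerns 10 genes that encode chaperones of histones H3 and H4, or subunits that act with them: Nasp, Asf1a, Asf1b, Hat1, Rbbp4, Rbbp7, Chaf1a, Chaf1b, Hira and Daxx. They are 10 of the 26743 genes counted by RNA-seq in whole mouse testis, and all 10 passed the filter on low counts. The genes were chosen by name for their function, together with Nasp because of its lower raw counts in mutant testis, so the difference between genotypes in these 10 genes is given as a description. Intervals and counts past the threshold of the fit across all genes are printed for them only to describe their values, with no p, and nothing rests on them. The working label called Nasp strongly lowered, and its mean level in the mutant was 56.3% of WT, a 1.78-fold difference.

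Testes were taken at 21 days after birth from 3 wild-type (WT) mice and 3 Trf2-/- mice, which carry the inactivated gene for TRF2 on both alleles. TRF2, encoded by Tbpl1, is a paralogue of the TATA-binding protein that is abundant in male germ cells, and day 21 is when round spermatids appear in the first wave of spermatogenesis. The labels list no treatment for either group. The study's methods give 129/SvPas as the breeding background of its tagged Trf2 line, and the way the mutant allele was made is not given in the sources used here. The study's methods call the replicates independent, with 3 for each genotype, so the spread described below is that between mice.

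Between 15187062 and 29859347 reads were counted on genes per mouse, with the lowest total in Trf2-/- mouse 3. Counts are given as CPM, counts divided by the library size in units of 1000000 reads after scaling by edgeR's TMM factors, and differences as log2 fold changes, Trf2-/- minus WT, with their standard error (SE) and n = 3 mice per genotype. The quasi-likelihood test of edgeR was run on 16924 genes. At an adjusted p under 0.05, 20.2% of them had lower and 11.2% had higher levels in the mutant, and 4.3% and 0.609% also differed by at least 2-fold. Scaling by library size alone turned the 3423 lower and 1889 higher genes into 2691 and 4267. Tbpl1 was at 308, 283 and 294 CPM in WT mice and at 62.9, 64.3 and 55.8 CPM in Trf2-/- mice (log2 fold change -2.27, SE 0.06, adjusted p = 1.18e-06, edgeR), so reads on the gene were fewer in every mutant mouse but not absent.

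In a cell that copies its DNA, new H3-H4 dimers are bound in the cytoplasm and nucleus by NASP, which protects the soluble pool, and are acetylated by HAT1 together with RBBP7. ASF1A and ASF1B pass the dimers on to CAF-1, formed by CHAF1A, CHAF1B and RBBP4, which loads them behind the replication fork. HIRA and DAXX place the replacement form of H3 outside replication, DAXX with its partner ATRX at repeats and telomeres. NASP also binds linker histone H1 and is known for a long form made in testis. In the testis the steps tied to DNA copying belong to dividing spermatogonia and to spermatocytes before meiosis. Roles outside replication are not limited to these cells, and which cells held the RNA of each gene was not tested. In elongating spermatids, histones are later replaced by protamines.

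The sequences before the start sites of 5 members are shown. Nasp, Chaf1a, Chaf1b and Daxx were chosen as the members lower past the threshold used for all genes, which is a description here. Rbbp4 was chosen because it overlapped between genotypes and was close to Nasp in its WT level per deposited gene length. With the union of annotated exons as the length it was not close, at a WT ratio of Nasp to Rbbp4 of 2.06. Each run holds the 250 bases before the start, 5′ to 3′ on the strand of the gene, from the RefSeq promoter table of GRCm38.p6. Each matched the genome build NCBIM37 of the counts once, at chr4:116300557-116300806 on the minus strand for Nasp, chr17:56179589-56179838 for Chaf1a, chr16:93883896-93884145 for Chaf1b, chr17:34046140-34046389 for Daxx, all 3 on the plus strand, and chr4:129012615-129012864 on the minus strand for Rbbp4. Capitals mark CCAAT and GGGCGG on either strand, where the other strand reads ATTGG and CCGCCC.
Nasp: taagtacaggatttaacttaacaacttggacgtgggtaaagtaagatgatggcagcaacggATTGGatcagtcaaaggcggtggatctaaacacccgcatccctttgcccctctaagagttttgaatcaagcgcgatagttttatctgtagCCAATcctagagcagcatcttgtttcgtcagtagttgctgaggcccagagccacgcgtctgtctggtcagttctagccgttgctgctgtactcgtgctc
Chaf1a: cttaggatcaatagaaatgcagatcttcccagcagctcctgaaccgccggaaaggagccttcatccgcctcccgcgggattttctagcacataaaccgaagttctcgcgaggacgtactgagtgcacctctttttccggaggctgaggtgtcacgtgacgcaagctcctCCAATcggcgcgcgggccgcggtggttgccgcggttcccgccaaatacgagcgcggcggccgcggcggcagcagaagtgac
Chaf1b: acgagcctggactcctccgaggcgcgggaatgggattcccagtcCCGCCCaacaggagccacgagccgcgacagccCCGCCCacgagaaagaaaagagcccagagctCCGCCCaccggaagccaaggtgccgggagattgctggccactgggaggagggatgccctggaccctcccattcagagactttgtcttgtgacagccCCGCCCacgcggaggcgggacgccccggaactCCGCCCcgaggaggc
Daxx: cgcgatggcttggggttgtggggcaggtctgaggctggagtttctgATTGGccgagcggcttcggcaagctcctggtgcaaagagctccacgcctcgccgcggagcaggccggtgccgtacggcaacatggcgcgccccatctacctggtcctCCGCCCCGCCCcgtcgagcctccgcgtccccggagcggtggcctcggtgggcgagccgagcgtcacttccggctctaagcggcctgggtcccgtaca
Rbbp4: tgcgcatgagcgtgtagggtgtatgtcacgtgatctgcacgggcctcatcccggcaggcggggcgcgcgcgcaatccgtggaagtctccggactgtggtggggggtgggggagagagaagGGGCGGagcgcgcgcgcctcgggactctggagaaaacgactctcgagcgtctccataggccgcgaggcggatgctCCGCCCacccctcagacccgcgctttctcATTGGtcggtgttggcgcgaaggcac

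The 250 bases before Nasp had a GC content of 48.4%, and 35.1% of the 32851 promoters of the table had less. The other 9 members lay between 60.8% and 76.4%, above the median of 52.4% over all promoters. The Nasp window also held fewer CpG dinucleotides, 11 against 21 to 34 in the others. The letters CCAAT, read on both strands, were found before 8 of the 10 members and before 33.9% of all promoters. Nasp held 2 matches, and Chaf1b and Hira held none. GGGCGG was likewise found before 8 members and before 32.7% of all promoters. Nasp and Chaf1a were the members without it, and the window of Chaf1b held 5 matches. Neither CCAAT nor GGGCGG was thus before all of Nasp, Chaf1a, Chaf1b and Daxx. TATAAA was in none of the members' windows and in 12.4% of all, and TTCCCGC was before Chaf1a and Chaf1b and before 3.82% of all. The remaining letters searched were TGACGTCA, in none of the members and 1.55% of all, and TTTGAA, before Nasp and Asf1b and 16% of all. Nasp has 4 annotated coding starts within 473 bases and Daxx has 3 starts in the table, of which the first is shown. The CCAAT match of Daxx is only in the window of that first start. The start used lay 287 bases from the nearest annotated coding start for Hira and 187 bases for Asf1b. For the other members this distance was at most 30 bases.

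Nasp was lower in every Trf2-/- mouse. WT mice 1 to 3 had 786, 737 and 745 CPM, and Trf2-/- mice 1 to 3 had 428, 446 and 402 CPM. The means were 756 ± 26.3 and 425 ± 22.5 CPM (SD, n = 3), the groups did not overlap, and the gap between the lowest WT and the highest mutant mouse was wider than either SD. In raw reads these are 22561, 19248 and 15529 counts in WT and 10792, 10408 and 6353 in Trf2-/-. The log2 fold change was -0.83 (SE 0.05), with a 95% interval from -0.949 to -0.71. The 25th to 75th percentiles of all tested genes ran from -0.21 to 0.209 on this scale, and 5.99% of tested genes had a lower value. With Nasp itself, 77 genes were at or above its WT level in CPM, and 4 of these had a lower log2 fold change: Tdrd6 at -1.24, Fhl4 at -1.18, Dnahc17 at -0.95 and Asrgl1 at -0.83. Nasp spans 26900 bases on chromosome 4, from 116273657 to 116300556 on the minus strand of NCBIM37, in 15 exon blocks, and overlaps no other annotated gene. Of its 50-base exon windows, as long as a read, 5.03% had an identical copy elsewhere in the genome, against none in Asf1a, Asf1b, Chaf1a, Hira and Daxx.

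**Figure D1:**
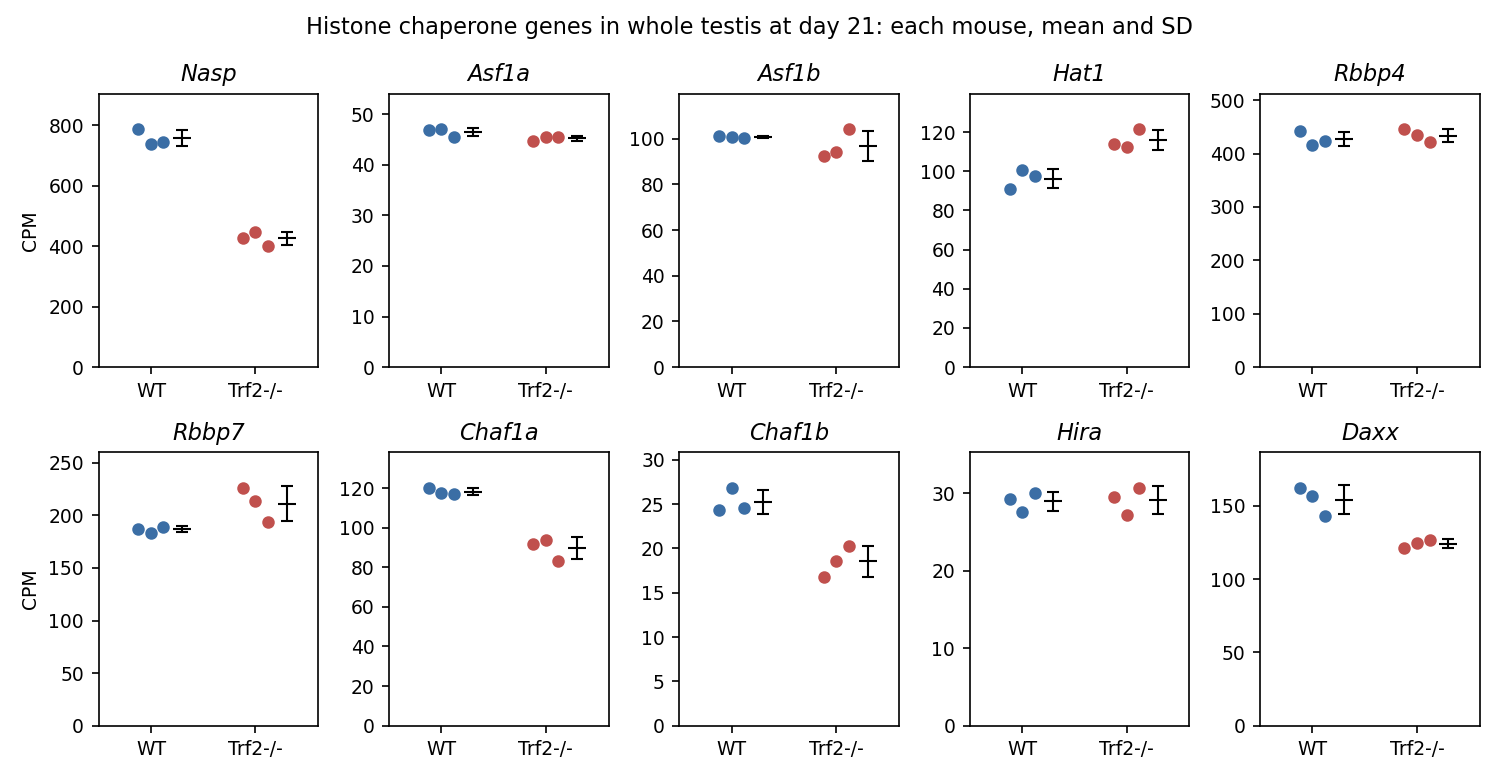
CPM of each histone chaperone gene in whole testis, with 1 point per mouse, WT in blue and Trf2-/- in red, and the mean and SD of the 3 mice in black beside them. Nasp lies at 737 to 786 CPM in WT and at 402 to 446 CPM in Trf2-/-, while the points of Asf1a, Asf1b, Rbbp4 and Hira overlap between genotypes.

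Among the 10 members, 4 were lower past the threshold used for all genes (Nasp, whose place was fixed by the choice, and Chaf1a, Chaf1b and Daxx, where 20.2% of all tested genes were lower) and 2 were higher (Hat1 and Rbbp7, against 11.2%). None of the 10 differed by 2-fold, against 4.3% of tested genes lower and 0.609% higher by that much. The same 4 and 2 genes were those whose 3 mutant values all lay below or all above the 3 WT values, which held for 26.8% of tested genes in the lower and 22.3% in the higher direction. Because the genes were picked with this contrast known, nothing is read from these shares. The median log2 fold change of the 10 members was -0.049 and that of all tested genes 0.037.

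Both large subunits of CAF-1, the chaperone of replicating chromatin, were at lower levels in Trf2-/- testis. Chaf1a, the largest subunit (chromosome 17, 56179827 to 56206973, plus strand), had 120, 117 and 117 CPM in WT mice and 91.7, 93.8 and 83.4 CPM in Trf2-/- mice. Its groups were well apart, with means of 118 ± 1.81 and 89.6 ± 5.48 CPM and a log2 fold change of -0.40 (SE 0.05). Chaf1b, the middle subunit (chromosome 16, 93884146 to 93906360, plus strand), was much less abundant, at 24.3, 26.8 and 24.6 CPM in WT and 16.8, 18.6 and 20.3 CPM in Trf2-/- mice. Its log2 fold change was -0.45 (SE 0.09), with the widest interval of the members, from -0.647 to -0.252, and 321 to 701 reads per mouse stand behind it. The ratio of Chaf1a to Chaf1b per length was 4.44 ± 0.279 in WT and 4.61 ± 0.655 in Trf2-/-, so the proportion of the subunits overlapped between genotypes. Chaf1a shares 5.06% of its exon bases with Ubxn6 on the opposite strand. Ubxn6, at 203 ± 4.78 CPM in WT and 163 ± 9.26 CPM in Trf2-/-, fell (log2 fold change -0.32, SE 0.05, adjusted p = 0.00224, edgeR), and whether the counting kept the strands apart is not given in the sources used here.

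Rbbp4 and Rbbp7, close paralogues that bind the helix of H4 and also sit in deacetylase, Polycomb and nucleosome remodelling complexes, were not lower. Rbbp4, the small subunit of CAF-1 (chromosome 4, 128984344 to 129012614, minus strand), had 442, 416 and 423 CPM in WT and 446, 434 and 421 CPM in Trf2-/- mice. The groups overlapped almost fully, and the log2 fold change of 0.02 (SE 0.05) had a 95% interval from -0.081 to 0.124. On the opposite strand it shares 8.94% of its exon bases with Sync and 9.1% with Gm17525, which had 41 to 67 and 4 to 13 reads per mouse. Rbbp7, the partner of HAT1 (chromosome X, 159198334 to 159217024, plus strand), had 187, 183 and 189 CPM in WT and 226, 213 and 193 CPM in Trf2-/- mice. All 3 mutant values were higher, but mouse 3 stood only just above the highest WT mouse. The log2 fold change was 0.18 (SE 0.06), and without Trf2-/- mouse 1 it was 0.11. Rbbp7 stayed past the threshold in 3 of 12 alternative analyses. Of the 50-base exon windows of Rbbp7, 16.3% had an identical copy elsewhere. The copies lie near the predicted genes Gm6382 on chromosome X and Gm8258 on chromosome 5, which had 0 to 3 and 4 to 8 reads per mouse. Rbbp7 also shares exon bases with Txlng on the other strand, which rose (log2 fold change 0.31, SE 0.08, adjusted p = 0.0162, edgeR) and had a much lower level of 18.2 ± 1.11 CPM in WT.

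Hat1, the acetyltransferase of new H4, was the member with the largest value in the other direction. The gene, on chromosome 2 from 71227015 to 71279679 on the plus strand, had 90.8, 100.4 and 97.4 CPM in WT and 114, 112 and 121 CPM in Trf2-/- mice. The groups did not overlap, the means were 96.2 ± 4.9 and 116 ± 4.87 CPM, and the log2 fold change was 0.27 (SE 0.06, 95% interval 0.143 to 0.394). The level of Nasp relative to Hat1, per length, was 3.02 ± 0.263 in WT and 1.41 ± 0.131 in Trf2-/- testis.

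The paralogues Asf1a and Asf1b, which receive H3-H4 and hand it on, differed little between genotypes. Asf1a (chromosome 10, 53316767 to 53329019, plus strand), the form used in and outside replication, had 46.9, 47 and 45.5 CPM in WT and 44.6, 45.5 and 45.5 CPM in Trf2-/- mice, with a log2 fold change of -0.04 (SE 0.05) and an interval from -0.155 to 0.074. Asf1b (chromosome 8, 86479406 to 86494096, plus strand), the form linked to proliferation, had 101, 101 and 100.1 CPM in WT and 92.4, 94 and 104 CPM in Trf2-/- mice. The WT mice were very close together, while mutant mice 1 and 2 lay below them and mouse 3 above. The log2 fold change was -0.06 (SE 0.06, interval -0.182 to 0.068). The ratio of Asf1b to Asf1a per length was 2.62 ± 0.0374 in WT and 2.59 ± 0.155 in Trf2-/-. Scaling by library size alone gave small positive values, 0.05 for Asf1a and 0.04 for Asf1b, with the median of all genes then at 0.131.

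The chaperones of replacement H3 differed from each other. Daxx (chromosome 17, 34046359 to 34052534, plus strand) had 162, 157 and 143 CPM in WT and 121, 125 and 127 CPM in Trf2-/- mice, so the mutant mice were close together below the lowest WT mouse. Its log2 fold change was -0.31 (SE 0.06, interval -0.439 to -0.189). Hira (chromosome 16, 18877130 to 18970402, plus strand) was at a low level, with 29.2, 27.6 and 30 CPM in WT and 29.5, 27.2 and 30.7 CPM in Trf2-/- mice. Its values overlapped throughout, and the log2 fold change was 0.01 (SE 0.07, interval -0.147 to 0.164). It shares 1.53% of its exon bases with Gm15797 on the same strand, which had 19 to 37 reads per mouse. The ratio of Daxx to Hira per length was 8.96 ± 0.828 in WT and 7.16 ± 0.463 in Trf2-/-.

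**Figure D2:**
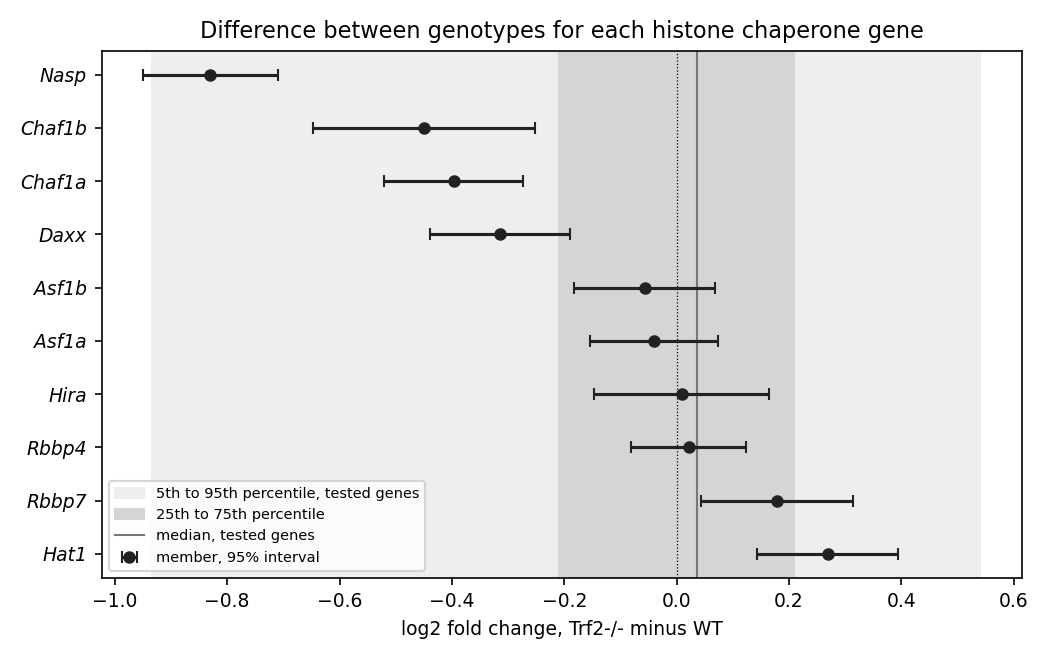
Log2 fold change of each member, Trf2-/- minus WT, on the horizontal axis, with its 95% interval from the fit across all genes. The grey bands hold the 25th to 75th percentiles (-0.21 to 0.209) and the 5th to 95th percentiles (-0.934 to 0.54) of all tested genes, and Nasp at -0.83 lies apart from the other 9 members, which run from -0.45 to 0.27.

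Levels can be compared between genes only per length. Dividing CPM by the deposited gene length in kilobases gave RPKM, whose median over tested genes was between 6.49 and 6.57 in every mouse. In WT testis Nasp was first, at 97.9 to 104 RPKM, and Rbbp4 second, at 91.2 to 96.8 RPKM. Rbbp7 followed at 64.2 ± 0.994, Asf1b at 55.8 ± 0.268, Daxx at 53 ± 3.38, Chaf1a at 41.5 ± 0.637, Hat1 at 33.3 ± 1.7, Asf1a at 21.3 ± 0.387, Chaf1b at 9.37 ± 0.522 and Hira at 5.93 ± 0.252 RPKM (SD, n = 3). Asf1b and Daxx were the neighbours in this order whose ranges overlapped. In Trf2-/- testis Rbbp4 came first at 94.9 ± 2.7 RPKM, Rbbp7 second at 72.5 ± 5.69 and Nasp followed them at 56.5 ± 2.99, with a range that overlapped that of Asf1b at 53.7 ± 3.55. Hat1, at 40.2 ± 1.69, stood above Chaf1a, at 31.5 ± 1.93, the reverse of their WT order. The order depends on the length used. The union of annotated exons is longer than the deposited length for 5 members, and with it Rbbp4 came to 48.9, Asf1b to 43, Chaf1b to 5.05 and Hira to 5.49 RPKM in WT, while Nasp, whose length of 7528 bases is the same in both, stayed first.

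**Figure D3:**
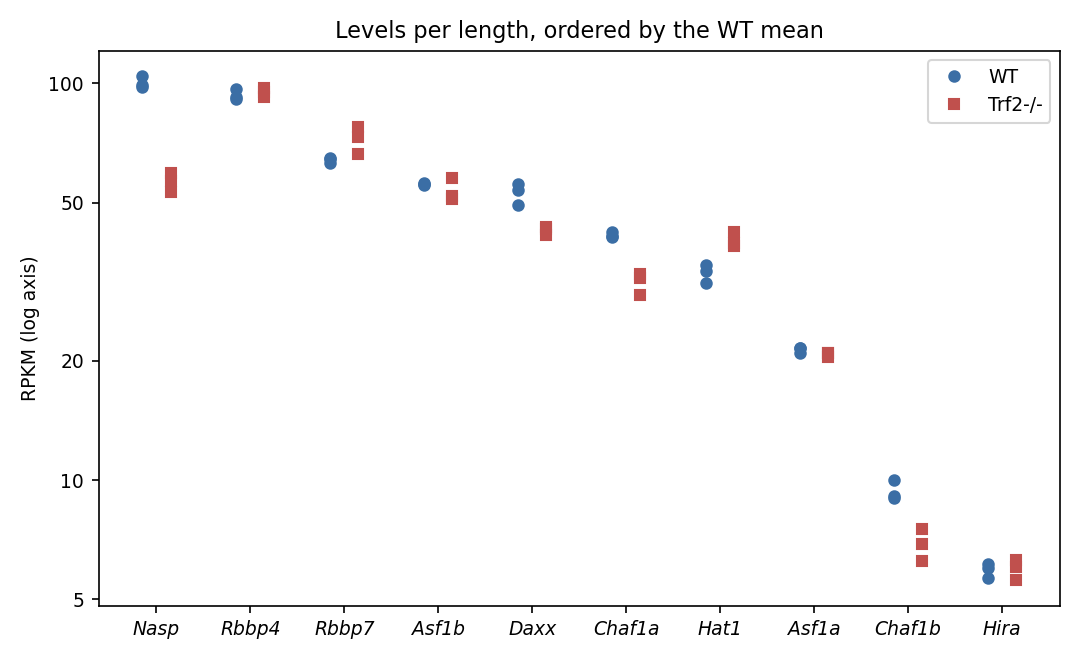
RPKM of each member on a log axis, genes ordered by their WT mean, with 1 blue circle per WT mouse and 1 red square per Trf2-/- mouse. Nasp leads in WT at 97.9 to 104 RPKM and lies at 53.3 to 59.3 RPKM in Trf2-/-, below Rbbp4 and Rbbp7.

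The proportions between members within a mouse do not depend on the scaling of the libraries. With the deposited lengths, Nasp made up 21.4%, 20.6% and 20.9% of the summed RPKM of the 10 members in WT mice and 13.2%, 13.9% and 12.7% in Trf2-/- mice. The sum itself was 479 ± 8.22 RPKM in WT and 426 ± 5.41 RPKM in Trf2-/-. The ratio of Nasp to Rbbp4 was 1.08, 1.07 and 1.07 in WT and 0.583, 0.624 and 0.579 in Trf2-/- mice. Nasp was chosen for its lower counts in mutant testis. Its share and this ratio therefore restate that difference and are given as a description. Both measures depend on the gene length. With the exon union length the ratio was 2.06 ± 0.00973 in WT and 1.14 ± 0.048 in Trf2-/-, so Nasp was then above Rbbp4 in both, and its share was 24.3% ± 0.485 and 15.6% ± 0.635.

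**Figure D4:**
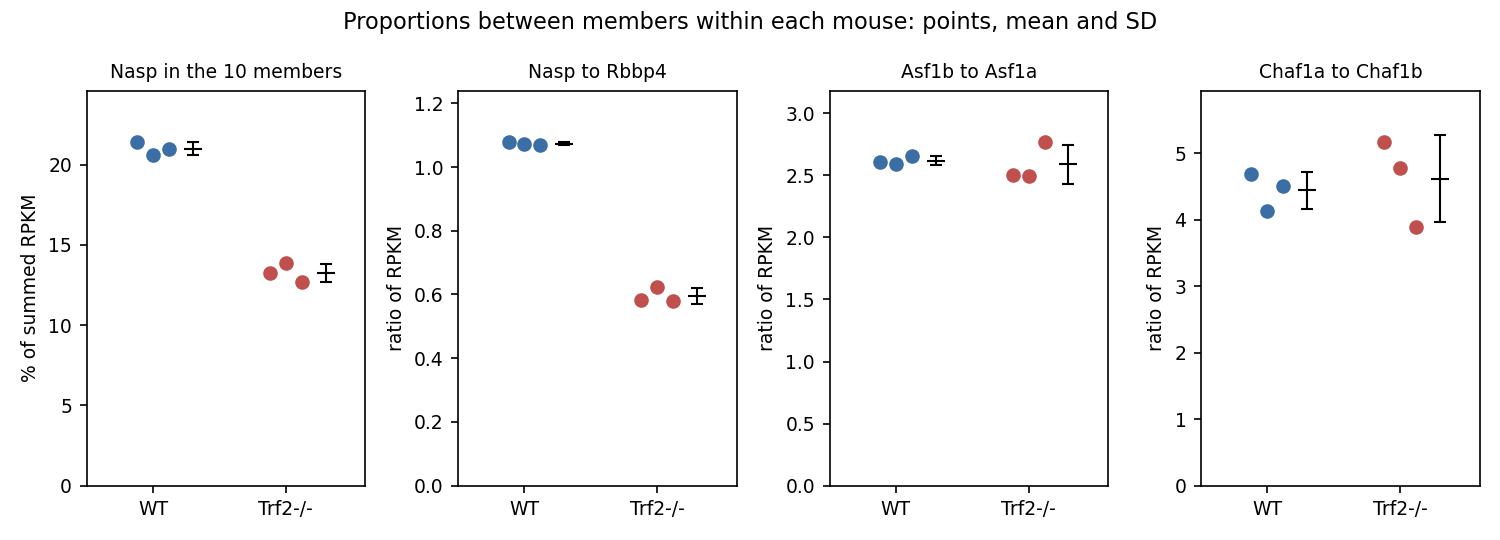
Share of Nasp in the summed RPKM of the 10 members (in percent) and 3 ratios of RPKM between members, with 1 point per mouse and the mean and SD in black. The share of Nasp is 20.6% to 21.4% in WT and 12.7% to 13.9% in Trf2-/-, a description since Nasp was chosen on this contrast. The ratios within the Asf1 pair and within the CAF-1 pair overlap between genotypes.

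Among 10305 genes with a mean of at least 10 CPM, 5 had values over the 6 mice most like those of Nasp, by the root mean square difference of log2 CPM centred on the WT mean (0.0298 to 0.0406). These were Flywch1, Gm16835, Git1, Zfp574 and Ndufaf3, with log2 fold changes from -0.87 to -0.81. Flywch1, the closest, had 356, 326 and 345 CPM in WT and 192, 208 and 177 CPM in Trf2-/- mice. The measure runs over 6 mice in 2 groups, so a gene with a like difference between genotypes scores as alike.

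Other genes of the pathway were taken from 6 lists by function, of which 104 of 108 genes were tested. Of these, 11 fell and 15 rose at an adjusted p under 0.05 (edgeR), which is 10.6% and 14.4% beside 20.2% and 11.2% of all tested genes, and the median log2 fold change was 0.034. The other partners and chaperones of H3-H4 numbered 17, of which none fell, 4 rose and 13 did not pass, with a median of 0.15. Atrx, which works with Daxx, rose from 122, 124 and 130 CPM in WT to 162, 152 and 170 CPM in Trf2-/- mice (log2 fold change 0.37, SE 0.05, adjusted p = 0.00144), opposite to Daxx. Cabin1, a subunit of the HIRA complex, rose by 0.25 (SE 0.08, adjusted p = 0.0367) on the log2 scale, and Supt6h rose by 0.14 (SE 0.05), near the threshold (adjusted p = 0.0434). Cabin1 and Supt6h lost the call in several alternatives, Atrx in none. Hjurp, the centromere chaperone, and Mcm2, which holds H3-H4 at the fork, had log2 fold changes of -0.02 and 0.17 and did not pass.

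Among 15 tested chaperones of H2A-H2B and related acidic proteins, 2 fell, 1 rose and 12 did not pass. Of all tested genes, 20.2% were lower and 11.2% higher. Npm3, a nucleoplasmin, had 76.1, 74 and 70.8 CPM in WT and 55.9, 56.2 and 52.2 CPM in Trf2-/- mice (log2 fold change -0.43, SE 0.06, adjusted p = 0.000927, edgeR), with no overlap. Nap1l4 fell by 0.15 (SE 0.05, adjusted p = 0.0361) and Anp32e, which removes H2A.Z, rose by 0.23 (SE 0.06, adjusted p = 0.0244). Without 1 mouse, these calls were lost in 4 and 3 of 6 analyses, and with library size alone Nap1l4 was at -0.06 and lost its call. Supt16h and Ssrp1, the subunits of FACT, had values of 0.08 and -0.11 and did not pass. Nap1l2, at 0 to 8 reads per mouse, was not tested.

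Of 27 genes for complexes that hold Rbbp4 or Rbbp7, 3 fell, 1 rose and 23 did not pass, beside 20.2% lower and 11.2% higher of all tested genes. Sap30, of the Sin3 deacetylase complex, fell from 34.1, 30.1 and 30.9 CPM to 22, 23.2 and 19.8 CPM (log2 fold change -0.55, SE 0.08, adjusted p = 0.00153, edgeR). Mbd3, of the NuRD complex, fell by 0.39 (SE 0.06, adjusted p = 0.00166) and Hdac1, the deacetylase of both, by 0.25 (SE 0.08, adjusted p = 0.0333). The call of Hdac1 was lost in 5 of 6 analyses without 1 mouse, with library size alone and with the replicate block. Smarca1, a remodelling ATPase, rose by 0.40 (SE 0.06, adjusted p = 0.00187). The Polycomb genes Ezh2, Eed and Suz12, at 0.14, -0.12 and -0.02, did not pass.

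Of 9 tested linker histones, the other proteins that NASP binds, 6 rose, 1 fell and 2 did not pass, beside 11.2% higher and 20.2% lower of all tested genes. Hist1h1d rose from 17.2, 17.7 and 19.8 CPM in WT to 27.4, 28 and 29.1 CPM in Trf2-/- mice (log2 fold change 0.63, SE 0.08, adjusted p = 0.000691, edgeR). Hist1h1c rose from 182 ± 6.5 to 269 ± 19.7 CPM (0.56, SE 0.06, adjusted p = 0.000505) and Hist1h1b from 8.6 ± 1.81 to 12.8 ± 2.47 CPM (0.59, SE 0.19, adjusted p = 0.0399). H1f0, Hist1h1e and Hist1h1a were the others that rose, although the values of Hist1h1a overlapped between genotypes. The calls of Hist1h1a, Hist1h1b and Hist1h1e were lost in 3 or more of the 6 analyses without 1 mouse. Hist1h1t, the linker histone of spermatocytes, was at 499 ± 23.2 and 469 ± 11 CPM and did not pass (-0.09, adjusted p = 0.181). Hils1, the linker histone-like gene of spermatids, fell, with 24, 27 and 24 reads in WT and 1, 4 and 0 reads in Trf2-/- mice (adjusted p = 0.00158). The libraries were made from total RNA without ribosomal RNA, so histone messages without a poly(A) tail could be counted. H1fnt and H1foo, at 0 to 7 reads per mouse, were not tested.

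Of 10 genes that serve histone mRNA, 1 rose, none fell and 9 did not pass, beside 11.2% higher and 20.2% lower of all tested genes. Cstf2 rose by 0.20 (SE 0.07, adjusted p = 0.0485, edgeR), a call lost in 5 of the 6 analyses without 1 mouse. Slbp, the stem-loop binding protein, was at 155 ± 3.13 CPM in WT and 155 ± 5.89 CPM in Trf2-/-. Of 26 DNA replication genes, 5 fell, 2 rose and 19 did not pass, beside the same shares. Rfc1, the large subunit of the clamp loader that places PCNA, fell from 220, 221 and 225 CPM to 160.1, 170 and 154 CPM (-0.46, SE 0.05, adjusted p = 0.000476). Rrm1, of ribonucleotide reductase, fell by 0.36 (SE 0.05, adjusted p = 0.000873) and Rfc2 by 0.26 (SE 0.06, adjusted p = 0.0103), with Gins2 and Mcm7 the others that fell. Prim1, of the primase, rose by 0.42 (SE 0.08, adjusted p = 0.00415) and Mcm5 by 0.22 (SE 0.06, adjusted p = 0.0241). Without 1 mouse, the calls of Gins2, Mcm5 and Mcm7 were lost in 5, 4 and 1 of 6 analyses. Pcna, which recruits CAF-1, had a log2 fold change of 0.14 (SE 0.05) and did not pass (adjusted p = 0.0662).

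**Figure D5:**
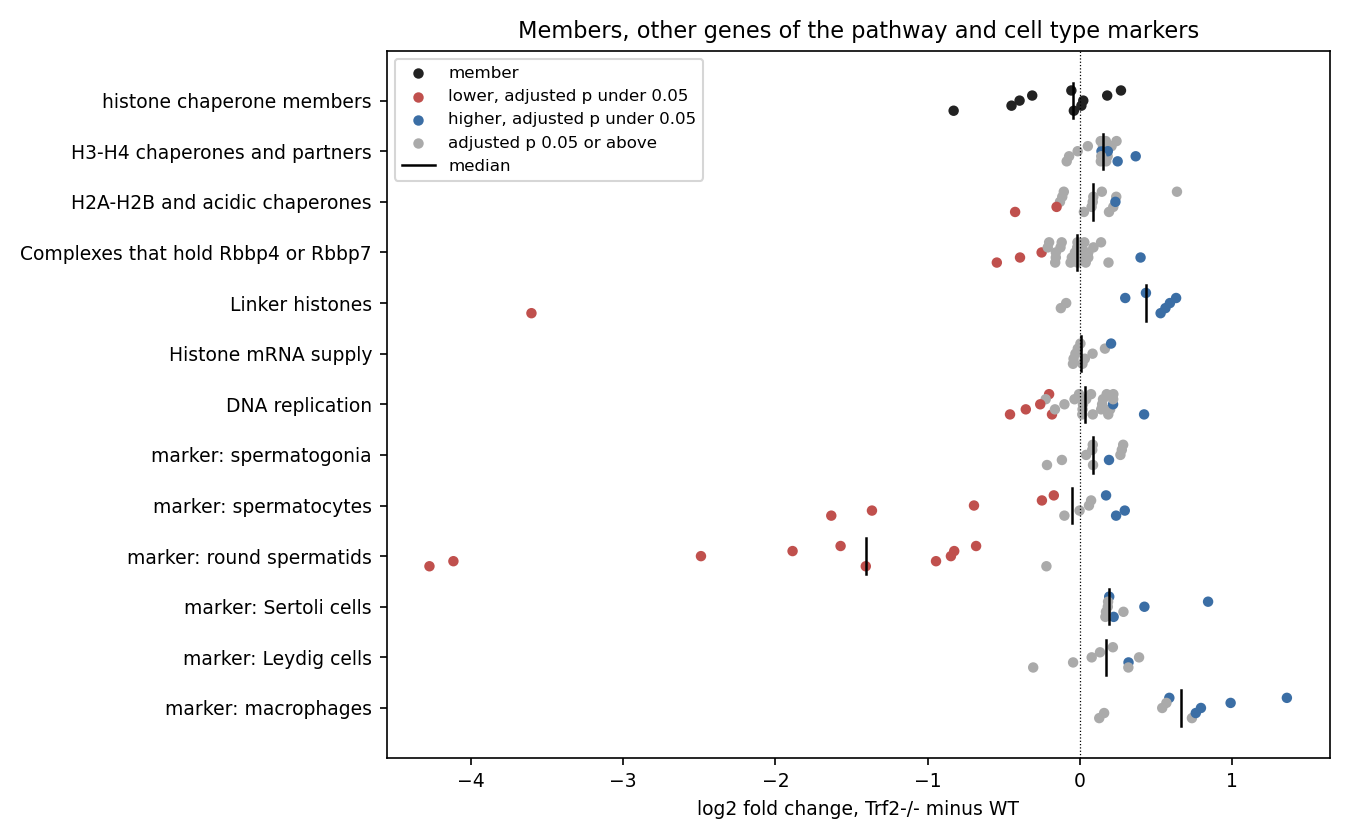
Log2 fold change, Trf2-/- minus WT, of the members (black), of the tested genes in the 6 pathway lists and of the tested cell type markers, with 1 point per gene, coloured by whether it was lower or higher at an adjusted p under 0.05, and a bar at each list's median. The members have a median of -0.049, the linker histones of 0.432 and the round spermatid markers of -1.41.

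Markers of cell types moved with the genotype in these whole testes. Of 11 tested round spermatid markers 10 fell and none rose, and their summed level was 1547 to 1609 CPM in WT and 713 to 1012 CPM in Trf2-/- mice. Acrv1, Izumo1, Tssk1, Tssk2, Catsper3 and Catsper4 fell by at least 2-fold. All but Tssk1 of these were at or under 1.29 CPM in WT. Of 12 spermatocyte markers 5 fell (Piwil1, Hspa2, Ldhc, Pgk2 and Ccna1), with Pgk2 and Ccna1 beyond 2-fold. Sycp1, Sycp3 and Hormad1 rose, by 0.29, 0.24 and 0.17 on the log2 scale, and 4 did not pass. The sum was 7545 to 7951 CPM in WT and 6150 to 6803 CPM in Trf2-/-. Ldhc, the most abundant in WT, went from 2279 ± 72 to 1407 ± 292 CPM, and the sum does not stand for each marker. Of 10 spermatogonial markers 1 rose and none fell, with sums of 277 to 295 and 283 to 371 CPM. In somatic cells 4 of 9 Sertoli markers, 1 of 8 Leydig markers and 5 of 10 macrophage markers rose and none fell, Lyz2 beyond 2-fold. The summed macrophage level was 194 to 223 CPM in WT and 220 to 429 CPM in Trf2-/-, highest in Trf2-/- mouse 1. Lyz2 had 104, 37.3 and 37.9 CPM in Trf2-/- mice and 21.8 to 25.3 CPM in WT mice, so mouse 1 stood apart, and the log2 fold change of 1.36 was 0.67 without it. The macrophage markers that rose numbered 3 without Trf2-/- mouse 1, 8 without Trf2-/- mouse 3, and 2, 0 and 0 without WT mouse 1, 2 and 3. The Sertoli markers that rose numbered 1 without WT mouse 1 and 2 without Trf2-/- mouse 1. The count of 1 spermatogonial marker was 0 without any 1 WT mouse and 2 without Trf2-/- mouse 2, and that of 1 Leydig marker was 0 without WT mouse 1, WT mouse 3 or Trf2-/- mouse 1. No marker on any list was at 0 in all mice of a genotype. The part of these shifts in the levels of Nasp and the other members was not tested, and in bulk testis fewer cells of a type and less RNA per cell cannot be told apart. An exact permutation test of 3 mice against 3 could not give a p under 0.1 for any single value.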

How the data were processed

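Total RNA of whole testis, depleted of ribosomal RNA, was sequenced with a stranded kit as single-end reads from 3 WT and 3 Trf2-/- mice. The authors mapped the reads to NCBIM37 (mm9), and the submitters' processing notes name CASAVA 1.8.2, TopHat2 2.0.10, Bowtie2 2.1.0, HTSeq 0.5.4p3 and DESeq2 1.0.19. The deposited table holds raw read counts for 26743 genes with 1 column per library, and the deposited gene length in bases. Use of the strand and the treatment of reads with several matches in the counting are not given in the sources used here. Of the table, 12 columns of normalized values per mouse, and columns of the authors' comparison (fold changes and p-values), were not used.

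Counts were analysed with edgeR 4.0.16 in R 4.3.3 (filterByExpr, TMM, glmQLFit, glmQLFTest) over 16924 genes, with Benjamini-Hochberg adjustment over all of them and a threshold of 0.05. The median biological coefficient of variation per gene was 0.0856. SE was derived from the log2 fold change and its F statistic. The script was tested on simulated data. Totals of 15187062 to 29859347 reads per mouse set the precision, and a gene under 3 reads in a mouse was taken to be at the floor. Replicate libraries differed beyond counting noise, so each mouse counted once.

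Locations, overlaps and 50-base windows were taken from the NCBIM37 genome and an annotation in which 26200 of the table's genes have the same coordinates. Promoters came from RefSeq.

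The members and all gene lists were chosen with earlier results of these data known. From each list the text names called genes beyond 2-fold, the 3 called genes with the largest change in each direction and, in lists without a call, the most abundant. The values of 1 gene that this rule names are not reported here. Other genes named as examples that did not pass were chosen after their values were seen. Alternatives were DESeq2 size factors, library size alone, the Wald test of DESeq2 1.42.0, other filters, a replicate block, each mouse left out, a threshold of 0.01 and, for levels, the exon union length.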

Additional observations from a re-analysis of the deposited data

How the results depend on the processing

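Nasp kept its direction in all 12 alternatives, with a log2 fold change from -0.878 to -0.735, the latter with library size alone, and Chaf1a, Chaf1b and Daxx kept theirs in all 12, which is a description of genes chosen on this contrast. The count of higher members was 1, Hat1 without Rbbp7, with DESeq2 size factors, the DESeq2 Wald test, at least 10 counts in every library and the replicate block, and 1 to 2 with a mouse left out; Rbbp7 was lost in each of these except without Trf2-/- mouse 3. Mice of the same replicate number had deviations correlated at -0.097, -0.031 and -0.102 over all tested genes. These values show no sign of pairing, but cannot exclude a pairing that affects part of the genes. The replicate block gave 3094 lower and 1486 higher genes in place of 3423 and 1889, and a log2 fold change of -0.83 for Nasp.

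Higher genes numbered 4267 with library size alone, 481 at an adjusted p under 0.01 and 780 to 1903 with a mouse left out (787 without WT mouse 1, 780 without WT mouse 2, 1168 without WT mouse 3 and 1174 without Trf2-/- mouse 1). Genes higher by at least 2-fold numbered 103, and 158, 159, 61 and 32 with library size alone, no filter beyond 1 count, at least 10 counts in every library and an adjusted p under 0.01, and 53 to 177 with a mouse left out (53 without WT mouse 1, 54 without Trf2-/- mouse 1, 177 without Trf2-/- mouse 3). Genes lower by at least 2-fold numbered 436, against 727, where every library needed 10 counts, a separate fit of 15525 genes. Of the pathway genes, 7 fell and 39 rose with library size alone, 6 fell and 6 rose at an adjusted p under 0.01, and 7 to 12 fell and 6 to 14 rose with a mouse left out (7 and 8 without WT mouse 2, 6 higher without WT mouse 1, 9 higher without WT mouse 3). Of 337 pairs of a called pathway gene and an alternative, 253 kept the call, 84 lost it and 0 reversed. With the exon union length, WT levels moved to 43 RPKM for Asf1b, 48.9 for Rbbp4, 5.05 for Chaf1b and 5.49 for Hira. Leaving each mouse out for the cell type markers, and the exon union length for the proportions of Nasp, were chosen after seeing the data. Causes beyond the construction of each alternative were not tested. Low depth limits Hils1 and the spermatid markers near 1 CPM.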
